A study of Homo sapiens with 8 samples.

Results

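The 7 genes described here encode KLF2, KLF4, KLF5, ESRRB, TBX3, TFCP2L1 and NR5A2, transcription factors associated with the naive state of pluripotency. They were followed through 6 peak lists of SOX2, OCT4 and NANOG by taking every peak for which the submitters listed one of them as a flanking gene at no more than 50 kb from its transcription start. This gave 109 peaks of 201619, around 7 of the 19668 genes that the lists name. Chromatin had been immunoprecipitated for each factor from H9, an established human embryonic stem cell line, and from NT2/D1, a human embryonal carcinoma line, with an IgG sample labelled in each line as the control. The labels give no treatment, time or genetic change for any of these samples. There was 1 library for each factor in each line. No value below therefore has a replicate error, and libraries could not be tested against each other. RNA was not measured in the files used here, so neither the identity of the lines nor the expression of the 7 genes could be checked.

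Naive pluripotency is the state of the early epiblast before implantation, whereas conventional human embryonic stem cells resemble the later, primed epiblast. In mouse embryonic stem cells the factors studied here act beside OCT4, SOX2 and NANOG. KLF4 and TFCP2L1 are known there as targets of LIF and STAT3 signalling, and ESRRB as a gene that TCF7L1 represses.

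The libraries differed in depth and in how peaks were called. Unique tags numbered 54046559 to 77649240 in the 3 libraries from H9 and 10218752 to 23160564 in those from NT2/D1. In H9 the median peak held 46 (SOX2), 32 (OCT4) and 40 tags (NANOG), and in NT2/D1 it held 11, 7 and 9. A single IgG library (58012070 unique tags) served the 3 H9 lists. In NT2/D1, per the file headers, SOX2 and NANOG were called against one IgG library (2937004 unique tags, 17.1% of its total) and OCT4 against another (6479071, 52.4%). The deposited name of the OCT4 list instead gives the IgG of SOX2 and NANOG, and the header was followed. It is not known here which of those the labelled NT2/D1 IgG sample is. The authors' tag counts, fold enrichments and scores serve here to describe or rank peaks within a list. They are not on 1 scale across lists. The score percentile of a peak is the percentage of peaks in its own list with a lower score. In the NT2/D1 SOX2 and NANOG lists the deposited FDR rose with score, so a high percentile there does not mean a low FDR.

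Peaks lay unevenly over the 7 genes. TBX3 had 38 of the 109 peaks, NR5A2 had 34 and KLF5 had 13, against 9 for ESRRB, 6 for KLF4, 5 for KLF2 and 4 for TFCP2L1. KLF5, TBX3 and NR5A2 thus held 85 of them, and were the only 3 members with a peak in all 6 lists, which 11.5% of all listed genes had. In H9 a SOX2 peak lay within 50 kb of 3 of the 7 genes (33.6% of all listed genes), an OCT4 peak near 6 (55.4%) and a NANOG peak near 6 (54.2%). In NT2/D1 SOX2 peaks lay near 5 (55.0%), OCT4 peaks near 7 (75.7%) and NANOG peaks near 6 (55.3%). With 7 genes, these shares are descriptions beside the background and were not tested. A peak counts only for the genes listed as flanking it, so a gene with close neighbours can miss peaks within 50 kb. The shares of all listed genes, here and below, rest on this listing and not on coordinates. KLF2, KLF4 and ESRRB had H9 peaks of OCT4 and NANOG without one of SOX2, a combination found for 14.1% of listed genes. TFCP2L1 had no H9 peak in any list, as did 25.9% of listed genes. The same set of lists as for KLF2 was found for 334 other genes (1.7%), as for KLF4 for 1022 (5.2%), as for ESRRB for 374 (1.9%) and as for TFCP2L1 for 631 (3.21%).

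**Figure D1:**
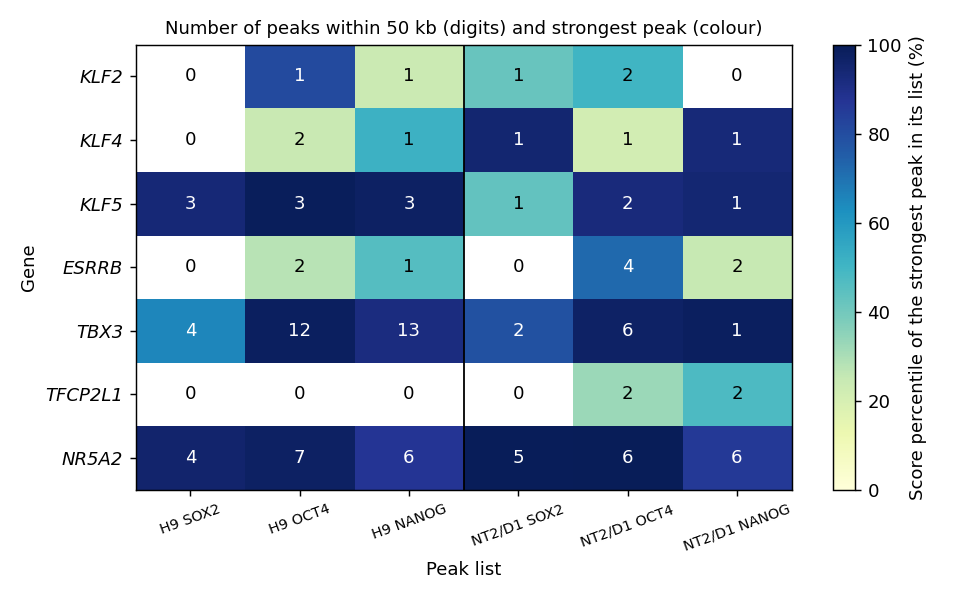
The rows are the 7 genes and the columns the 6 peak lists. Digits give the number of peaks within 50 kb and colour gives the score percentile of the strongest of them within its list (%), with white for no peak. KLF5, TBX3 and NR5A2 fill every column, TBX3 has 12 and 13 peaks for OCT4 and NANOG in H9, and TFCP2L1 is white in all H9 columns.

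**Figure D2:**
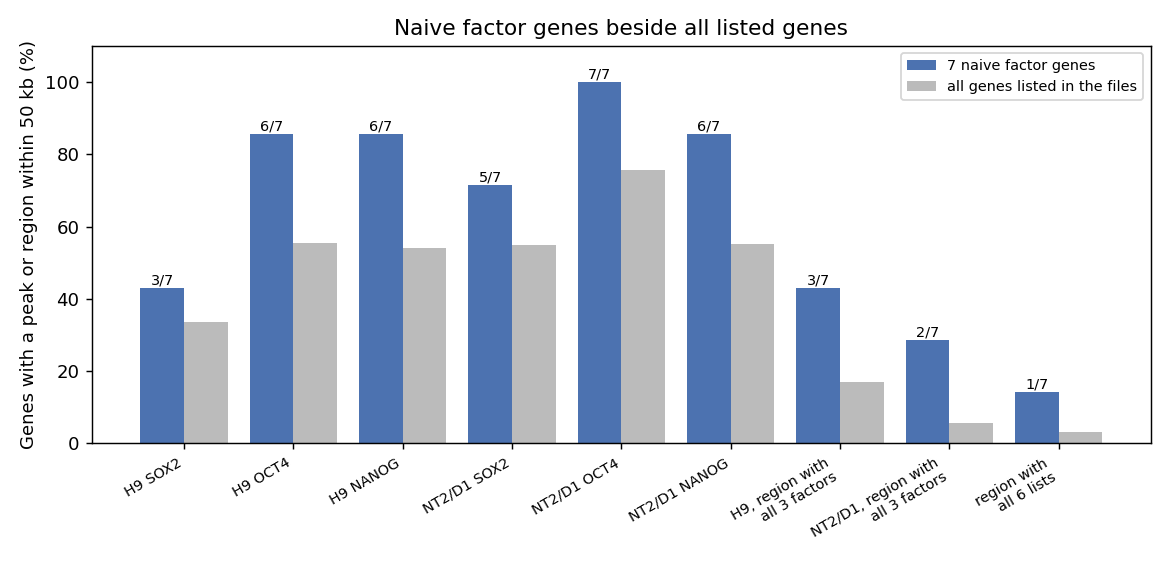
Bars give the percentage of genes with a peak, or with a region of several factors, within 50 kb, for the 7 genes (blue, with counts above) and for all 19668 listed genes (grey). The blue bar is the taller one in each of the 9 comparisons, and 1 gene is 14.3% of a blue bar. Peaks count only for the genes listed as flanking them.

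With distances signed along the gene, 47 peaks were upstream of the start, 60 downstream and 2 over it. The same split was not computed over all peaks. Those 2 were at TBX3, so 1 of the 7 genes (14.3%) had a peak over its start, close to the 15.8% of listed genes. Within 5 kb of the start, 1 member had an H9 SOX2 peak (9.58% of listed genes), 3 an OCT4 peak (24.1%) and 3 a NANOG peak (21.5%). In NT2/D1, 2 had a SOX2 peak (17.3%), 3 an OCT4 peak (38.5%) and 2 a NANOG peak (18.4%) in this window.

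Peaks that overlapped by at least 1 bp were joined into 64 sites. Of these, 42 had a peak in 1 list, 12 in 2, 1 in 3, 8 in 4 and 1 in all 6. All 3 factors met in H9 at 8 sites, spread over 3 genes (17.1% of listed genes): 3 at KLF5, 3 at NR5A2 and 2 at TBX3. In NT2/D1 they met at 2 sites, 1 at NR5A2 and 1 at TBX3 (5.61% of listed genes). The site in all 6 lists was at NR5A2 (3.22% of listed genes). At KLF2, KLF4, ESRRB and TFCP2L1, 22 of 23 sites had a peak in 1 list. The share of regions with a peak in 1 list was not computed over all genes, so these counts do not set any member apart.

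KLF5, a Krüppel-like zinc finger factor that binds GC-rich boxes, had 13 peaks on 4 sites. Its start in the files is chr13:73633141 (hg19, plus strand). All of its 9 H9 peaks fell on 3 sites, each with SOX2, OCT4 and NANOG. As many as 3 H9 peaks or more were near 3.63% (SOX2), 10.8% (OCT4) and 10.9% (NANOG) of listed genes.

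The downstream site, 16.5 kb from the start (chr13:73649153-73650152), carried the KLF5 peak with the highest score in each H9 list. In H9, SOX2 had 116 tags there (fold 12.81), OCT4 had 119 (fold 11.78) and NANOG had 143 (fold 22.26). The score percentiles were 93.36, 99.14 and 97.29. NT2/D1 had an OCT4 peak of 9 tags there, with a fold of 20.93 and a percentile of 92.25. The 3 H9 summits lay within 22 bp of each other, and with the NT2/D1 OCT4 summit within 46 bp.

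Another H9 site lay 20.8 kb upstream (chr13:73612012-73612710). In H9, SOX2 had 62 tags (fold 13.03), OCT4 had 26 (fold 6.38) and NANOG had 92 (fold 23.51), in percentiles 85.42, 77.92 and 95.44. In NT2/D1 the NANOG list had a peak of 12 tags at this site, in percentile 94.52, and the SOX2 and OCT4 lists had none. In NT2/D1, OCT4 alone was thus called at the downstream site (9 tags, deposited FDR 1.09%) and NANOG alone at this one (12 tags, 14.19%). All 3 factors were called at both sites in H9. Signal under the calling threshold was not seen, so a missing NT2/D1 call does not show that a factor is absent.

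The third H9 site was 4.1 kb upstream (chr13:73628748-73629361) and weaker, with 30 SOX2, 24 OCT4 and 41 NANOG tags in H9. The NT2/D1 OCT4 peak there had 5 tags (exact 95% Poisson interval 1.62 to 11.7). The H9 summits were 4119 (SOX2), 4129 (OCT4) and 4114 bp (NANOG) upstream of the start, and the NT2/D1 OCT4 summit was 4083 bp upstream. The fourth KLF5 site, 2.7 kb upstream, had only an NT2/D1 SOX2 peak of 12 tags in percentile 43.21. RefSeq lists KLF5 with an upstream start 4029 bp before the downstream one, which is why the bases before both starts are shown.

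The sequences are the 250 bases upstream of each start, plus strand, from RefSeq on GRCh38.p14, and capitals mark the core SOX motif CATTGT followed, after 1 further base of any kind, by ATGC, the first letters of the octamer ATGCAAAT that OCT4 and related factors bind.
KLF5 upstream start, chr13:73054726-73054975: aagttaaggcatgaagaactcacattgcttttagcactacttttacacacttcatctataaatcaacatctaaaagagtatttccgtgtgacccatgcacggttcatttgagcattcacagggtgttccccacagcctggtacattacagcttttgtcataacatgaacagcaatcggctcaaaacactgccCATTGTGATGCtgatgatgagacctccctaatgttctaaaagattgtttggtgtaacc
KLF5 downstream start, chr13:73058755-73059004: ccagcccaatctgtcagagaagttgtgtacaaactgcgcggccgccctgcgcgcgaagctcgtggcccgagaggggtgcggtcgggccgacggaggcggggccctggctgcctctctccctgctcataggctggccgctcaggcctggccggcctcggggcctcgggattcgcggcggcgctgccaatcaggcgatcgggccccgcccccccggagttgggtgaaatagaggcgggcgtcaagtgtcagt

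The upstream sequence holds this pair, beginning 58 bp before the start, and the downstream one holds no match. On either strand, the pair was in 33 of 35116 promoters of 300 bases (0.094%), and the core CATTGT, which it contains, in 3786 (10.8%). The paired form was chosen after the sequence had been seen. The full octamer ATGCAAAT was in 1.77% of promoters and in none of the 10 listed for 6 of the 7 genes. The KLF5 starts also differ in base composition, with 40.7% GC and 4 CG dinucleotides upstream against 71.3% and 37 downstream. The median promoter had 58.7% and 14. The peaks are on hg19 and the promoters on GRCh38.p14, so whether the 4.1 kb site covers these bases was not checked by sequence. A motif match is a description and does not show binding.

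**Figure D3:**
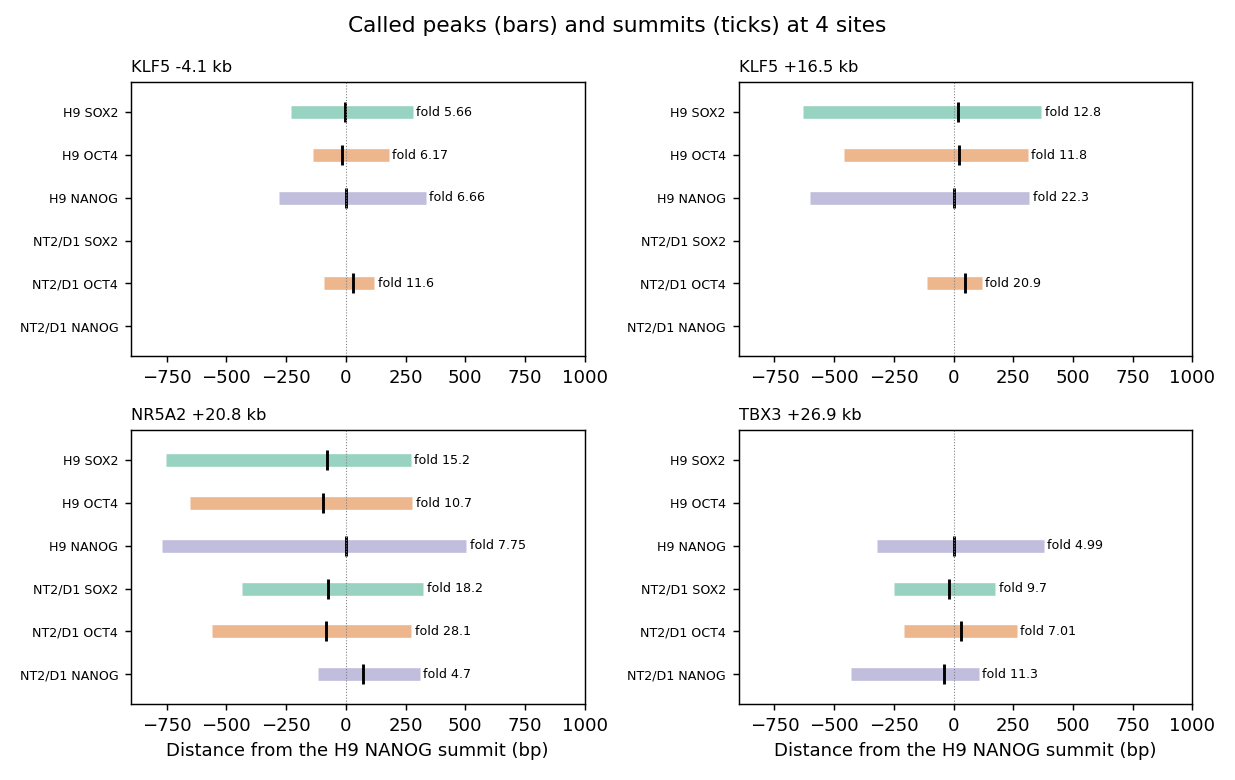
Bars span called peaks and ticks mark their summits at 4 sites, as distance in bp from the H9 NANOG summit, with the authors' fold beside each bar. Summits at KLF5 lie within 46 bp in the 4 lists that have a peak, the NR5A2 site has a bar in all 6 lists, and the TBX3 site has all 3 NT2/D1 factors with H9 NANOG alone.

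KLF2 and KLF4 are the other Krüppel-like factors among the 7, and KLF4 was among the original reprogramming factors. KLF2 starts at chr19:16435650 on the plus strand. Its strongest peak was that of H9 OCT4, 1.7 kb downstream, with 42 tags, a fold of 5.63 and a percentile of 80.61. H9 NANOG had a peak of 23 tags 46.8 kb upstream. In NT2/D1, SOX2 had 10 tags 28.9 kb upstream, and OCT4 had 9 tags at 33.8 kb and 8 tags at 20.1 kb upstream. No KLF2 site was shared by any pair of lists.

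KLF4 starts at chr9:110252047 on the minus strand. In H9 its peaks were those of OCT4 24.2 kb downstream with 17 tags (fold 4.06) and at the upstream limit of the window with 22 tags (fold 4.04), and of NANOG 2.7 kb downstream with 37 tags (fold 4.07). Their percentiles were 24.29, 8.548 and 51.28. The NT2/D1 peaks were at other positions. SOX2 had 18 tags 17.1 kb downstream, in percentile 94.6, and NANOG had 13 tags 42.3 kb downstream, in percentile 93.06. The deposited FDR of these peaks was 11.72% and 12.51%, and in those 2 lists FDR rose with score. OCT4 had 6 tags 22.6 kb upstream, in percentile 21.48. As at KLF2, no site was shared between lists.

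**Figure D4:**
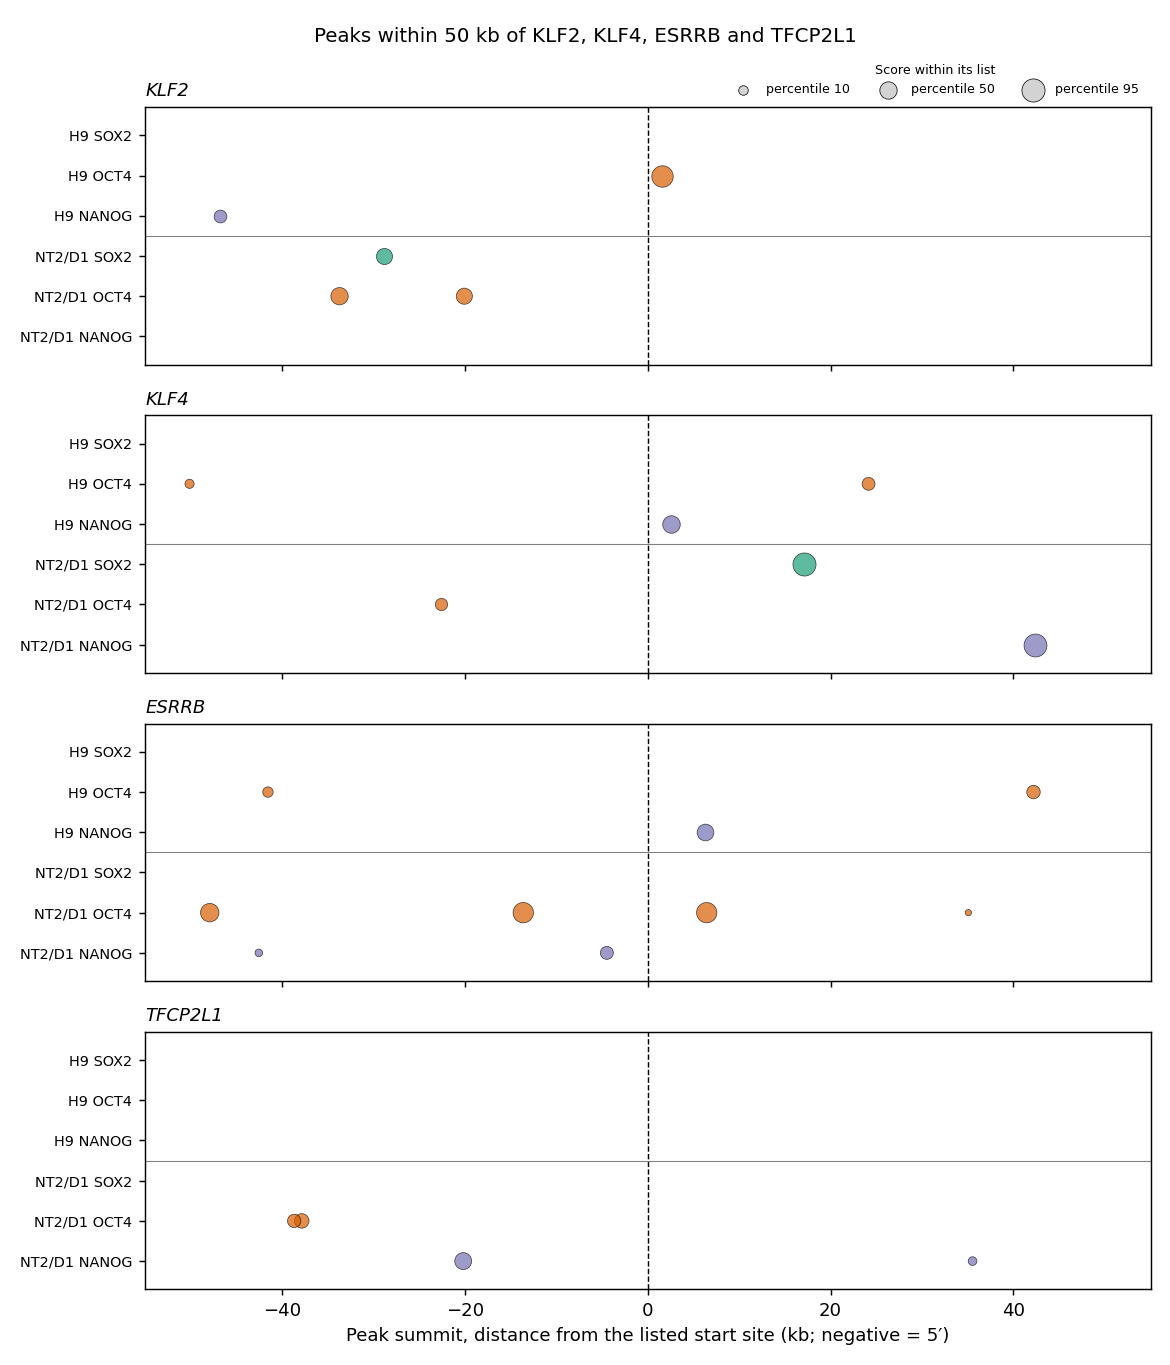
Points are peak summits in the 6 lists around KLF2, KLF4, ESRRB and TFCP2L1, as distance from the listed start in kb (negative is upstream), and point size follows the score percentile within the list. Points of different lists line up only at ESRRB, 6.3 kb downstream, and the H9 rows of TFCP2L1 are empty.

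ESRRB and NR5A2 are orphan nuclear receptors, which bind closely related half-site elements and can each take part in reprogramming in the mouse. Their peaks differed. ESRRB, which starts at chr14:76837689 on the plus strand, had no SOX2 peak in either line. H9 OCT4 had 30 tags 41.7 kb upstream and 22 tags 42.1 kb downstream, in percentiles 13.39 and 27.39. H9 NANOG had 29 tags 6.3 kb downstream (fold 3.7), and this peak overlapped one of NT2/D1 OCT4 with 8 tags (fold 10.99), their summits 165 bp apart. It was the only ESRRB site within 50 kb seen in both lines, and 2 different factors were called on it. The other NT2/D1 peaks were 3 of OCT4 with 6 tags each and 2 of NANOG with 9 tags each. RefSeq lists 3 starts for ESRRB over 65.4 kb, so distances to the start used here do not describe the others.

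NR5A2 starts at chr1:199996769 on the plus strand in the files. Near it were 4 SOX2, 7 OCT4 and 6 NANOG peaks in H9, and 5, 6 and 6 in NT2/D1. As many peaks were found near 1.34%, 0.814% and 1.26% of listed genes in H9, and 5.15%, 2.31% and 2.8% in NT2/D1. At TBX3 more peaks were called in H9 than in NT2/D1, whereas NR5A2 had 17 in each line.

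Its site in all 6 lists was 20.8 kb downstream (chr1:200016896-200018170). In H9, SOX2 had 156 tags (fold 15.24), OCT4 had 131 (fold 10.7) and NANOG had 120 (fold 7.75), in percentiles 95.39, 97.28 and 87.36. In NT2/D1, SOX2 had 51 tags (fold 18.24), OCT4 had 101 (fold 28.11) and NANOG had 13 (fold 4.7), in percentiles 99.45, 99.92 and 1.213. By score, SOX2 and OCT4 were therefore among the strongest peaks of their lists in both lines, and NANOG was near the bottom of its NT2/D1 list. The deposited FDR in NT2/D1 was 27.96% for SOX2, 8.33% for OCT4 and 1.39% for NANOG. FDR rose with score in the SOX2 and NANOG lists, so this ranking does not say which call is more secure. The 101 tags of NT2/D1 OCT4 compare with a median of 9 for that list's peaks near the 7 genes. All 6 summits lay within 166 bp. With the upper 50% of each list by score, the NANOG peak was lost and no site remained in all 6 lists.

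H9 had 2 further NR5A2 sites with all 3 factors. One lay 49.6 kb upstream (chr1:199946517-199947835), with 44, 34 and 71 tags for SOX2, OCT4 and NANOG, and NT2/D1 OCT4 had 11 tags there. The other lay 14.5 kb downstream (chr1:200010726-200011805), with 39, 36 and 60 tags and folds of 3.03, 3.44 and 3.56, and had no NT2/D1 peak. RefSeq places a further NR5A2 start 14881 bp downstream of the upstream one. The H9 NANOG peak spans 13966 to 15036 bp from the start in the files and would include that position, whereas the H9 SOX2 and OCT4 peaks end at 14543 and 14449 bp. That the start in the files is the upstream one was not checked by sequence. The 250 bases before the further start are shown for this reason and hold neither CATTGT nor the octamer.
NR5A2 further start, plus strand of chr1:200042341-200042590 (GRCh38.p14): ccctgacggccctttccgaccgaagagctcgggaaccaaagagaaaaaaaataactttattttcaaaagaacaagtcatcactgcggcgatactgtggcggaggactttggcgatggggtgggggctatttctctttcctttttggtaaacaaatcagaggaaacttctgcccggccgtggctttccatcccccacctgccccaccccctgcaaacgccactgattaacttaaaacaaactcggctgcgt

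Its base composition was 52.7% GC over the 300 bases, against 36.7% at the upstream start. Closer to the upstream start, NT2/D1 OCT4 and NANOG shared a site 2.1 kb downstream, with 13 and 24 tags in percentiles 81.39 and 85.68, that had no H9 peak. NT2/D1 SOX2 and OCT4 shared another without an H9 peak 22.4 kb upstream, with 22 and 7 tags in percentiles 71.27 and 10.29. A site 6.8 kb downstream was called in 4 lists. There H9 NANOG had 128 tags (percentile 83.88), H9 OCT4 50 (26.35), NT2/D1 OCT4 11 (20.37) and NT2/D1 NANOG 11 (5.317).

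TBX3, a T-box factor that supports self-renewal of mouse embryonic stem cells and acts in many developing tissues, starts at chr12:115121969 on the minus strand. In H9 it had 4 SOX2, 12 OCT4 and 13 NANOG peaks. At least 12 OCT4 peaks were found near 0.107% of listed genes (21 genes) and at least 13 NANOG peaks near 0.0407% (8 genes). In NT2/D1 it had 2 SOX2, 6 OCT4 and 1 NANOG peak, and at least as many were found near 29.5%, 2.31% and 55.3% of listed genes.

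The H9 NANOG peaks at TBX3 covered 15240 bp and were 512 to 2681 bp long with a median of 1145 bp (705 bp over the list). Their folds were 3.75 to 11.1 (median 5.11 over the list). The OCT4 peaks covered 7875 bp with a median of 609 bp (408 bp over the list). Their folds were 2.91 to 9.27 (median 4.52 over the list). The peaks were thus mostly long, and in both lists most had a fold below the list median. Of the 7 sites with H9 OCT4 and NANOG but no SOX2, 5 were at TBX3. A NANOG peak of 136 tags upstream, in percentile 82.83, overlapped 2 OCT4 peaks of 32 and 30 tags, with summits up to 1906 bp apart. A site 4.4 kb downstream, with 124 NANOG tags (percentile 88.46) and 84 OCT4 tags (percentile 48.17), had summits 11 bp apart.

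All 3 H9 factors met at TBX3 at 2 downstream sites. At 44.9 kb (chr12:115076527-115077513) there were 79 SOX2, 122 OCT4 and 94 NANOG tags, in percentiles 64.94, 98.2 and 91.72. At 15.9 kb (chr12:115105417-115106632) there were 47, 103 and 40 tags, in percentiles 65.15, 96.0 and 60.63. OCT4 had the highest percentile at both. NT2/D1 OCT4 was also called at both, with 27 tags in percentile 97.0 at 15.9 kb and 2 peaks of 9 tags each at 44.9 kb.

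The order of the lines was the opposite at 26.9 kb downstream (chr12:115094670-115095475). All 3 NT2/D1 factors were called there, with 16 SOX2, 14 OCT4 and 30 NANOG tags, in percentiles 78.57, 69.01 and 98.42. Their deposited FDR was 4.15%, 7.35% and 24.16%. In H9 only NANOG was called, with 39 tags in percentile 48.48. This was the single NANOG peak at TBX3 in NT2/D1, and the 4 summits lay within 74 bp.

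The TBX3 start itself was covered by 2 peaks. That of H9 NANOG spanned 413 bp upstream to 1137 bp downstream and had 87 tags, a fold of 3.85 and a percentile of 62.15. That of NT2/D1 OCT4 spanned 426 bp upstream to 264 bp downstream and had 19 tags, a fold of 8.01 and a percentile of 78.37. Their summits were 228 bp downstream and 246 bp upstream of the start.

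**Figure D5:**
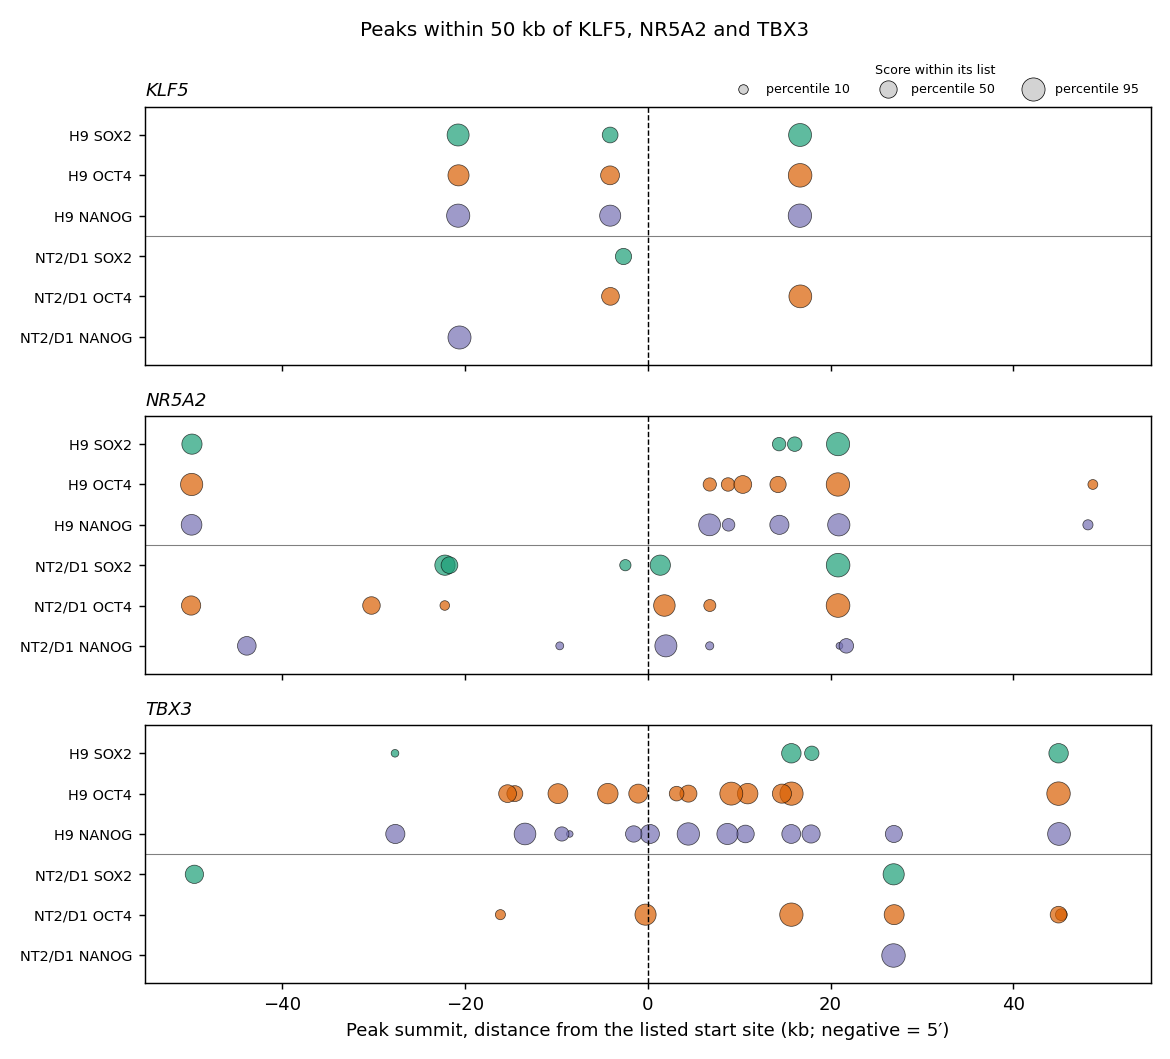
Points are peak summits in the 6 lists around KLF5, NR5A2 and TBX3, as distance from the listed start in kb (negative is upstream), and point size follows the score percentile within the list. The H9 rows of KLF5 share 3 positions, the 6 rows of NR5A2 share the one 20.8 kb downstream, and the H9 OCT4 and NANOG rows of TBX3 carry 12 and 13 points.

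TFCP2L1, a grainyhead-like factor, starts at chr2:122042778 on the minus strand. It had 4 peaks, all in NT2/D1 and at 4 separate sites. OCT4 had 7 tags 38.7 kb upstream and 8 tags 37.9 kb upstream, in percentiles 26.6 and 32.67. NANOG had 10 tags 20.2 kb upstream and 9 tags 35.6 kb downstream, in percentiles 47.4 and 6.975. None was in the upper 50% of its list.

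The rank of the peaks within their lists is given as a description. Pooled over the 7 genes in H9, their median percentile was 64.9 (SOX2), 60.6 (OCT4) and 62.1 (NANOG), against 48.1, 47.8 and 46.3 over all peaks within 50 kb of a listed gene. These H9 medians were carried by KLF5, TBX3 and NR5A2. The H9 peaks of KLF4 were in percentiles 24.29, 8.548 and 51.28, those of ESRRB in 13.39, 27.39 and 45.96 and those of KLF2 in 80.61 and 23.78, and TFCP2L1 had none. In NT2/D1 the pooled medians were 64.0, 51.6 and 33.0 against 51.0, 49.9 and 50.8. The NT2/D1 NANOG peaks of the 7 genes thus had the lowest median, although 3 of 13 were in the top 10% of their list (9.81% over all).

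Overlap at these genes was counted between factors in H9 and between lines. Of the 11 H9 SOX2 peaks at these genes, 10 overlapped a NANOG peak (90.9%, exact 95% binomial interval 58.7 to 99.8) and 8 an OCT4 peak (72.7%, 39.0 to 94.0), beside 64.0% and 54.0% over all peaks near a listed gene. Of the 27 H9 OCT4 peaks, 16 overlapped a NANOG peak (59.3%, 38.8 to 77.6), beside 37.9% over all. Of the 25 H9 NANOG peaks, 15 overlapped an OCT4 peak (60.0%, 38.7 to 78.9), beside 36.0% over all. The shares between OCT4 and NANOG over all peaks lay just under the intervals for the 7 genes. Those intervals take each peak as independent, which neighbouring peaks at TBX3 and NR5A2 are not, so this small margin decides nothing. The same factor was called in NT2/D1 at 1 of 11 SOX2 peaks (9.09%, 0.23 to 41.3), 7 of 27 OCT4 peaks (25.9%, 11.1 to 46.3) and 4 of 25 NANOG peaks (16.0%, 4.54 to 36.1). Over all peaks near a listed gene these shares were 16.7%, 24.8% and 9.85%, each inside the interval for the 7 genes.

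In the other direction, the NT2/D1 OCT4 peaks of the 7 genes overlapped H9 peaks at larger shares than all such peaks did. Of 23, 7 overlapped H9 SOX2 (30.4%, 13.2 to 52.9, beside 11.3% over all), 8 overlapped H9 OCT4 (34.8%, 16.4 to 57.3, beside 15.7%) and 11 overlapped H9 NANOG (47.8%, 26.8 to 69.4, beside 16.1%). With any list of the other line accepted, 17 of 46 NT2/D1 peaks (37.0%, beside 16.3% over all) and 26 of 63 H9 peaks (41.3%, beside 32.3%) were shared. Over the 30 ordered pairs of lists, the share over all peaks lay outside the interval for the 7 genes in 5, each time below it. Those pairs are not separate results, and their number is not a test. They are the H9 OCT4 and NANOG overlap counted from both sides, and the same 23 NT2/D1 OCT4 peaks set against each H9 list. The intervals cover counting error only, and neighbouring peaks at TBX3 and NR5A2 are not independent. The median H9 NANOG peak was 1145 bp long at TBX3 and 1297 bp at NR5A2, against 705 bp over the list. The part of peak length and density in these overlaps was not tested. A single SOX2 peak, that of the NR5A2 site in all 6 lists, was shared between the lines.

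When any NT2/D1 list was accepted, 7 of the 8 H9 sites with all 3 factors had a peak in NT2/D1, and 6 had one of OCT4. Over the 3424 such H9 regions near listed genes, 60.7% had a peak in any NT2/D1 list and 54.6% one of OCT4. In all, 26 of the 64 sites were called only in H9, 27 only in NT2/D1 and 11 in both lines. This split was not computed over all regions, so it is not shown to be particular to the 7 genes. NT2/D1 OCT4 was the list with the most peaks and the fewest unique tags, and the part of depth and calling in these counts was not tested.

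Other genes of the same families and pathways were counted in the same way, beside the 17.1% of all listed genes with an H9 region of all 3 factors and the 5.61% with an NT2/D1 one. Among 14 further KLF family genes, 3 (KLF3, KLF6 and KLF7) had such a region in H9 and KLF3 also had one in NT2/D1, which is near the share of all listed genes. Their strongest single peaks were those of KLF13 (NT2/D1 OCT4, 46 tags, percentile 99.68), KLF17 (NT2/D1 NANOG 0.4 kb from the start, 32 tags, percentile 97.51) and KLF3 (NT2/D1 SOX2, 18 tags, percentile 95.36). KLF17 is known as a marker of human naive cells. Among 13 paralogs of the other members, 3 had such a region in H9 (ESRRG, TBX20 and GRHL2) and 2 in NT2/D1 (UBP1 and GRHL3). TFCP2, a relative of TFCP2L1, had an NT2/D1 NANOG peak of 21 tags 0.1 kb from its start, in percentile 96.57.

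Of 10 LIF and STAT3 pathway genes, 2 had an H9 region with all 3 factors (PIM1 and GBX2) and 2 an NT2/D1 one (JAK1 and PIM1). GBX2, a homeobox gene, had an NT2/D1 OCT4 peak of 107 tags 8.1 kb from its start. Of 16 other genes associated with the naive state, 6 had such a region in H9 (DPPA3, DPPA5, ZFP42, TFAP2C, ALPPL2 and CBFA2T2) and 4 of these also in NT2/D1. DPPA5, expressed in the early embryo, had an H9 NANOG peak of 479 tags 4.2 kb from its start, in percentile 99.96. Of 16 genes associated with the primed state, 12 had one in H9 (17.1% of all listed genes) and 5 in NT2/D1 (5.61%). DUSP6, a phosphatase that limits ERK signalling, had an H9 NANOG peak of 413 tags 1.5 kb from its start, and OTX2, a homeobox factor of the primed epiblast, an NT2/D1 SOX2 peak of 58 tags 0.2 kb from its start. Of the 7 members, 3 had one in H9 and 2 in NT2/D1. The members and these lists were chosen with earlier results of these data known, so the counts do not compare the states. None of these lists was tested against another.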

How the data were processed

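Peak lists of SOX2, OCT4 and NANOG in H9 and NT2/D1 were used, and IgG entered only as the control of the peak calling. The file headers name 1 IgG library for H9 and 2 for NT2/D1, while the labels list 1 IgG sample in each line. Peaks had been called with MACS against IgG at a p-value cutoff of 0.001, per the file headers, on hg19, per the submitters' processing notes. The aligner and the version of MACS are not given in the sources used here. Among the values, the deposited tag count is not normalized, the deposited fold is a ratio to background computed by the authors, FDR is deposited as a percent and the deposited score was read as -10 times log10 of p. MACS ran with a band width of 2000 for H9 but 200 for NT2/D1, per the file headers. Its model fold was 5 for NT2/D1 OCT4 and 3 for every other list. The NT2/D1 OCT4 and NANOG libraries have exchanged source names in the labels; titles and file headers agree and were followed.

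Start sites were recovered from the deposited distances, all of which pointed to 1 position for each of the 7 genes. A gene counted as called where a list held a peak within 50 kb that named it as a flanking gene, and the background was all 19668 listed genes. Overlaps of at least 1 bp joined peaks into sites. Peaks with no listed distances (14, 38 and 15 in the NT2/D1 SOX2, OCT4 and NANOG lists) could not enter. Overlap counting was tested on simulated, widely spaced sites, which could not test closely neighbouring peaks, and reciprocal overlap was not tested. Intervals are exact (95%). Python 3.11.15, pandas 2.3.3 and scipy 1.17.1 were used. All 7 members were named with their peaks, and from each of 5 further lists (69 genes) at most the 3 genes with the highest percentile of any peak; genes holding regions were named in addition, after their values were seen. The members and lists were chosen with earlier results of these data known. The alternatives were a 5 kb window, the upper 50% of each list, lists of 19349 peaks, the nearer gene only, summits within 200 bp, reciprocal overlap of 50%, exchanged NT2/D1 libraries and, chosen after seeing the data, assignment by coordinates. Exons, introns and peak sequences were not analysed here.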

Additional observations from a re-analysis of the deposited data

How the results depend on the processing

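With 1 library for each factor and line there was no replicate to leave out, and depth, band width and IgG library differ between the lines, so the line and the calling cannot be told apart. No paired analysis was possible because each factor and line had 1 library. Counts are of listed peaks only, and signal under the calling threshold was not seen. Few tags in NT2/D1 limit each position.

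Assignment to the nearer gene only or by coordinates left all 18 results within 1.5 times, or within the interval of a share, and summits within 200 bp left all 6 results it touches. With the upper 50% by score, the peaks of the 7 genes numbered 6 for H9 SOX2, 16 for H9 OCT4, and 6, 13 and 5 for NT2/D1 SOX2, OCT4 and NANOG. Then 3 members had an NT2/D1 SOX2 peak, 1 site held all 3 NT2/D1 factors and 0 all 6 lists. With lists of equal length, NT2/D1 had 6, 9 and 6 peaks for SOX2, OCT4 and NANOG, 3 members had a SOX2 peak and 4 an OCT4 peak there, 1 site held all 3 NT2/D1 factors and 0 all 6 lists. Within 5 kb, SOX2, OCT4 and NANOG had 1, 6 and 5 peaks at 1, 3 and 3 members in H9, and 3, 3 and 2 peaks at 2, 3 and 2 members in NT2/D1. In that window 1 H9 site and 0 NT2/D1 sites held all 3 factors, 0 held all 6 lists, and 0.0% of the SOX2 and 0.0% of the NANOG peaks of H9 were shared with NT2/D1. Exchanging the NT2/D1 OCT4 and NANOG libraries gave 13 OCT4 and 23 NANOG peaks and shared parts of 11.1% for OCT4 and 40.0% for NANOG. A reciprocal overlap of 50% left 5 H9 sites with all 3 factors and a shared part of 4.0% for NANOG. The cause of these shifts was not tested beyond the smaller number of peaks or the narrower window that the alternatives themselves impose.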

Other observations

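Peaks that list one of the 7 genes as a flanking gene also lay beyond 50 kb. Just outside the window, 53.5 kb downstream of the NR5A2 start (chr1:200050280-200051298), was a further region in all 6 lists. In H9, SOX2 had 153 tags (fold 26.94), OCT4 had 98 (fold 14.48) and NANOG had 95 (fold 15.9) there. In NT2/D1, SOX2 had 34 tags (fold 11.32), OCT4 had 30 (fold 20.9) and NANOG had 28 (fold 12.33). Its percentiles were 93.44 to 99.34 in H9 and 96.64 to 98.95 in NT2/D1. By score, NANOG in NT2/D1 was thus near the top of its list here and near the bottom 20.8 kb from the start.

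TBX3 had 74 such distant regions, 2 of them in all 6 lists, and KLF4 had 92, with 1 in all 6. TFCP2L1, with no H9 peak within 50 kb, had an H9 region with all 3 factors 209.5 kb downstream, of 134 SOX2, 154 OCT4 and 90 NANOG tags in percentiles 95.33, 99.28 and 83.35. KLF2 and ESRRB had 5 and 14 distant regions and none with all 3 factors in either line. Just outside the ESRRB window, 56.1 kb upstream, H9 NANOG had a peak of 171 tags in percentile 89.45. It overlapped an H9 OCT4 peak of 62 tags (percentile 37.95) and, at its edge, an NT2/D1 NANOG peak of 14 tags (percentile 92.84). At these distances the listed gene is the flanking one, and other genes can be as near or nearer.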
